A study of Mus musculus with 4 samples.

Results

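The platelet-derived growth factor (PDGF) system was described through its 6 genes: the ligand genes Pdgfa, Pdgfb, Pdgfc and Pdgfd and the receptor genes Pdgfra and Pdgfrb. They were taken by gene symbol from the 32285 genes counted in each library, and all 6 were detected in all 4 libraries. Single-cell RNA profiles came from the brain side opposite to an intracranial injection in mice given as C57BL/6 in the series' design, collected 2 weeks after it. The strain field of the labels ends in a different digit in each of the 4 samples and was not used. The mice were 8 weeks old (young) or 93 weeks old (old) and had received either 1000 CT2A-GFP-luc cells, a mouse glioblastoma line carrying GFP and luciferase (tumour), or PBS (sham). All tissue passed through the same enzymatic dissociation kit and 10x 3′ v3 chemistry. The groups were 4, with 1 library each: young sham, then young tumour, then old sham, then old tumour. Values given in fours follow that order. With 1 library per group there were no replicates and no test between groups, and the number of mice behind a library is not stated in the labels. Every interval below is an exact 95% interval that covers counting error only.

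PDGF ligands are secreted dimers that bind receptor tyrosine kinases. The A and C chains act mainly through the receptor encoded by Pdgfra, the D chain mainly through that encoded by Pdgfrb, and the B chain through both. In the brain, Pdgfra marks oligodendrocyte precursor cells, whose division and migration depend on PDGF-A, and Pdgfrb marks pericytes, which are recruited to and kept on capillaries by PDGF-B from the endothelium. Ligands of the C and D chains are released with a blocking domain that proteases such as tissue plasminogen activator or urokinase remove.

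The libraries held 62726818 to 76652484 UMIs (unique molecular identifiers, each standing for 1 captured RNA molecule) in 10665 to 12070 barcodes. Filtering and doublet removal left 9529 to 10571 cells per library, 40390 in all, with median depths of 3773 to 4858 UMIs and median mitochondrial shares of 3.30 to 4.76%. Any pair of libraries shared 27 to 53 barcodes, at most 0.468% of the smaller library. Cells were placed in classes by marker genes that hold none of the 6 PDGF genes, and names carry "-like" because they were rebuilt from markers. All the markers of a class were detected in its own cells, apart from Dpep1 in fibroblast-like cells of old sham and Ngfr in olfactory ensheathing-like cells of young tumour. The young tumour library stood apart. It held 431 cells with at least 2 UMIs of Hmga2, a chromatin protein of embryonic tissue, against 0, 1 and 0 in young sham, old sham and old tumour. These cells carried 20.4% of that library's UMIs and form a class of their own here.

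Over whole libraries, Pdgfa was counted at 70.4, 73.4, 109 and 96.8 UMIs per 1000000 UMIs (CPM) in the kept cells. Pdgfb was counted at 119, 70.3, 107 and 89.8 CPM. The young tumour value of Pdgfb was 87.7 without the Hmga2-expressing cells. Pdgfc stood at 5.49, 7.98, 4.92 and 5.32 CPM, and its young tumour value became 5.08 without those cells. Pdgfd stood at 12.9, 6.88, 9.63 and 14.1 CPM (8.60 in young tumour without them). Pdgfra differed most between libraries, at 14.6, 25.4, 51.8 and 8.52 CPM, and stood at 6.14 in young tumour when the Hmga2-expressing cells were left out. Pdgfrb stood at 48.7, 34.9, 28.2 and 29.5 CPM (35.1 without them). These totals depend on which cells each library caught: 328 oligodendrocyte precursor-like cells in old sham against 25 to 89 elsewhere, for example. Levels were therefore compared within classes, as the UMIs of a gene per 1000000 UMIs of the class. Olfactory ensheathing-like cells numbered 0, 43, 0 and 68 and were thus found in the tumour libraries alone. Comparing within classes does not remove differences in which subsets of a class were caught, and their part was not tested. Levels of different genes are not ranked against each other, because counts at the 3′ end do not scale alike between genes.

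**Figure D1:**
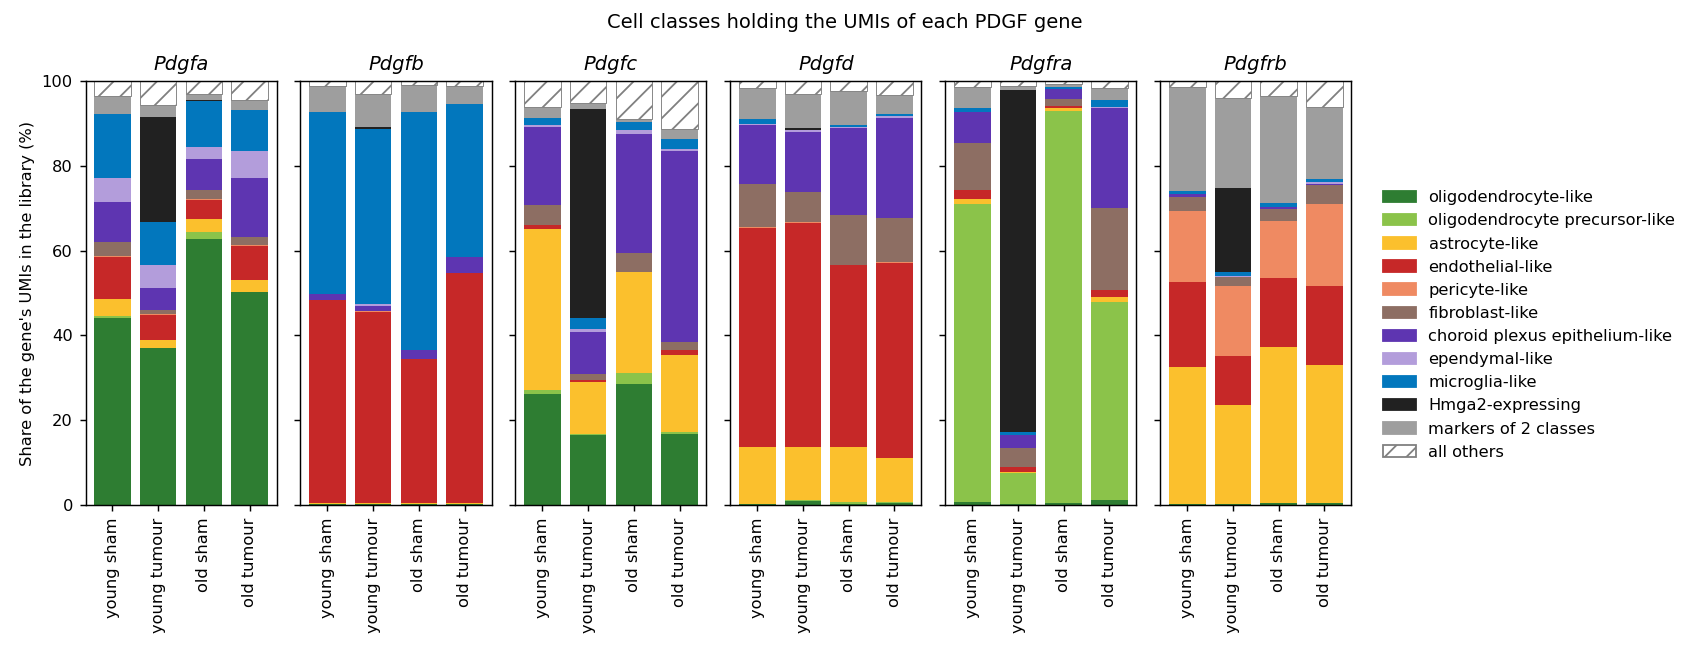
Share of each PDGF gene's UMIs (vertical axis, %) held by gated cell classes in each library (bars); grey marks cells with markers of 2 classes and hatching all other cells. The oligodendrocyte-like class holds the widest band of the named classes for Pdgfa, endothelial- and microglia-like cells hold most of Pdgfb, and 80.7% of Pdgfra in young tumour lies in Hmga2-expressing cells.

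A ratio between 2 libraries was called higher or lower at 1.5-fold or more, in classes of at least 50 cells and for genes with at least 10 CPM in 1 of the libraries. The 4 comparisons share libraries with each other: young sham enters both the young tumour contrast and the age contrast in sham, and the other libraries likewise. Ratios past the bound whose interval did not hold 1 concern Pdgfra and Pdgfrb in fibroblast-like cells, Pdgfa in astrocyte-, neuron- and monocyte-like cells, and Pdgfc in oligodendrocyte-like cells.

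Pdgfa (ENSMUSG00000025856) encodes the PDGF A chain and lies on mouse chromosome 5 (GRCm38, 138976014 to 138997370, minus strand). Oligodendrocyte-like cells, the myelinating glia, held 44.1%, 37.1%, 62.7% and 50.3% of its UMIs, more than any other class in each library. With clusters in place of the marker gate they held 27.5%, 25.0%, 33.8% and 27.8%. Of the 6317 gated cells, 4858 kept the name by cluster. Clusters of 958, 338 and 162 cells that scored highest as oligodendrocyte, the largest led by Klk6 (described below), were left without a name. Their part in the lower shares was not tested. The level in the gated class was 235 CPM (224 to 247), 218 (208 to 229), 274 (266 to 283) and 289 (279 to 299). Both old libraries lay above both young ones. The ratio was 1.17 for old sham against young sham (1.10 to 1.24) and 1.32 for old tumour against young tumour (1.25 to 1.40), each within the 1.5-fold bound. Tumour against sham gave 0.928 (0.867 to 0.993) at the young age and 1.05 at the old (1.00 to 1.10).

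A UMI of Pdgfa was found in 69.4%, 66.1%, 66.0% and 72.5% of oligodendrocyte-like cells, at median depths of 5089 to 6458 UMIs. Among T cell-like cells, at median depths of 3162 to 4117 UMIs, 0 to 1.32% had one. After each cell was thinned to 1000 UMIs the shares were 19.8%, 20.6%, 22.4% and 24.0% in oligodendrocyte-like cells. Pdgfa was not spread evenly within the class. Cells with a UMI of Klk6, a serine protease gene of a subset of mature oligodendrocytes, had 450, 407, 408 and 451 CPM of Pdgfa, against 187, 186, 229 and 229 CPM in cells without one. Cells without a UMI of Opalin, a myelin glycoprotein gene, had 472, 514, 457 and 494 CPM, against 206, 196, 239 and 249 in cells with one. Klk6 and Opalin were chosen for this split after values had been seen. The Klk6-positive cells had higher levels than the Klk6-negative cells in all 4 libraries.

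Smooth muscle-like cells, the contractile wall cells of arteries, had a level near that of oligodendrocyte-like cells: 364 CPM (298 to 441) in the 56 cells of young tumour, 253 (187 to 335) in the 37 of old sham and 277.3 (238 to 321) in the 96 of old tumour. The 16 such cells of young sham were too few for a level. Ranges over libraries of these classes overlapped, so their order is not set. Below them, without overlap, came ependymal-like cells at 102, 95.9, 86.0 and 94.6 CPM. Hmga2-expressing cells had 88.4 CPM and pericyte-like cells 52.2 to 103, on 12 to 18 UMIs. Choroid plexus epithelium-like cells had 66.6 to 76.0 CPM, fibroblast-like cells 53.9 to 83.9 and endothelial-like cells 47.8 to 64.9. From ependymal- to endothelial-like cells, the ranges of neighbours in this order overlapped. Within endothelial-like cells, those with arterial markers had 191, 185, 96.9 and 189 CPM (30 to 59 cells), and those with capillary markers 28.5, 32.7, 36.6 and 42.8 (550 to 949 cells). The arterial level was thus above the capillary level in each library.

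Microglia-like cells, the resident macrophages of the brain, had 41.4, 35.2, 48.9 and 49.2 CPM of Pdgfa, which was 16.1 to 17.8% of the oligodendrocyte-like level in the same library. The 8 oligodendrocyte markers stood in them at 0.251 to 0.518% of their own class level. For choroid plexus epithelium-like cells these figures were 23.1 to 34.8% and 0.0828 to 0.233%, and for ependymal-like cells 31.4 to 43.9% and 0.0919 to 0.635%. Pdgfa in these classes was therefore counted at a higher fraction of the oligodendrocyte-like level than oligodendrocyte markers were.

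In astrocyte-like cells Pdgfa was low but called in the age comparisons. The level was 16.7 CPM (152 UMIs), 14.6 (84), 28.2 (181) and 22.0 (166). Both old libraries lay above both young ones, by 1.69-fold in sham (1.35 to 2.11) and 1.502-fold with tumour (1.15 to 1.98). The second of these lies on the bound: it was 1.499 when mitochondrial and ribosomal protein genes were left out of the class total and 1.49 as a mean over cells. Over all genes measured in this class, 4.52% were past 1.5-fold for old sham against young sham and 2.93% for old tumour against young tumour, in either direction. Of the 4 PDGF genes measured, Pdgfa alone was called in each. None of 4 was called for young tumour against young sham (1.38% of all genes), nor of 3 for old tumour against old sham (2.4% of all genes). Oligodendrocyte markers summed to 130, 148, 268 and 180 CPM in astrocyte-like cells, 0.268 to 0.655% of their own class level, and were also higher in both old libraries. Pdgfa stood at 6.70 to 10.3% of its oligodendrocyte-like level. The part of these markers in the result was not tested. Cells with at least 2 UMIs of Gfap, an intermediate filament gene of reactive and fibrous astrocytes, had 48.6, 52.6, 81.9 and 52.3 CPM of Pdgfa, on 19 to 33 UMIs. Those with fewer had 15.2, 12.1, 25.4 and 19.2 (a split also chosen after values had been seen). The old libraries were thus also the higher ones among cells with fewer than 2 UMIs of Gfap.

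Pdgfa in neuron-like cells was 38.98, 59.9, 70.5 and 52.8 CPM on 25 to 58 UMIs, a ratio of 1.81 for old sham against young sham (1.18 to 2.80). There 2 of 3 PDGF genes were called, the other being Pdgfb at 1.58 with an interval holding 1 (0.702 to 3.66), where 26.7% of all genes were past the bound. For young tumour against young sham, Pdgfa stood at 1.54 (0.888 to 2.61) and Pdgfc at 0.467 (0.0497 to 2.19), beside 29.5% of all genes. None of 2 was called for old tumour against old sham (31.7% of all genes) or old tumour against young tumour (31.1%). In monocyte-like cells, 47 UMIs in 243 cells of young tumour stood against 2 UMIs in 57 cells of young sham, a ratio of 6.04 (1.58 to 51.3). It was 1 of 2 genes measured there, beside 43.6% of all genes past the bound. Old sham and old tumour held 34 and 29 such cells and 0 UMIs of Pdgfa, which allows up to 13.5 and 13.3 CPM. Of the young tumour UMIs, 29.8% lay in 5 cells.

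**Figure D2:**
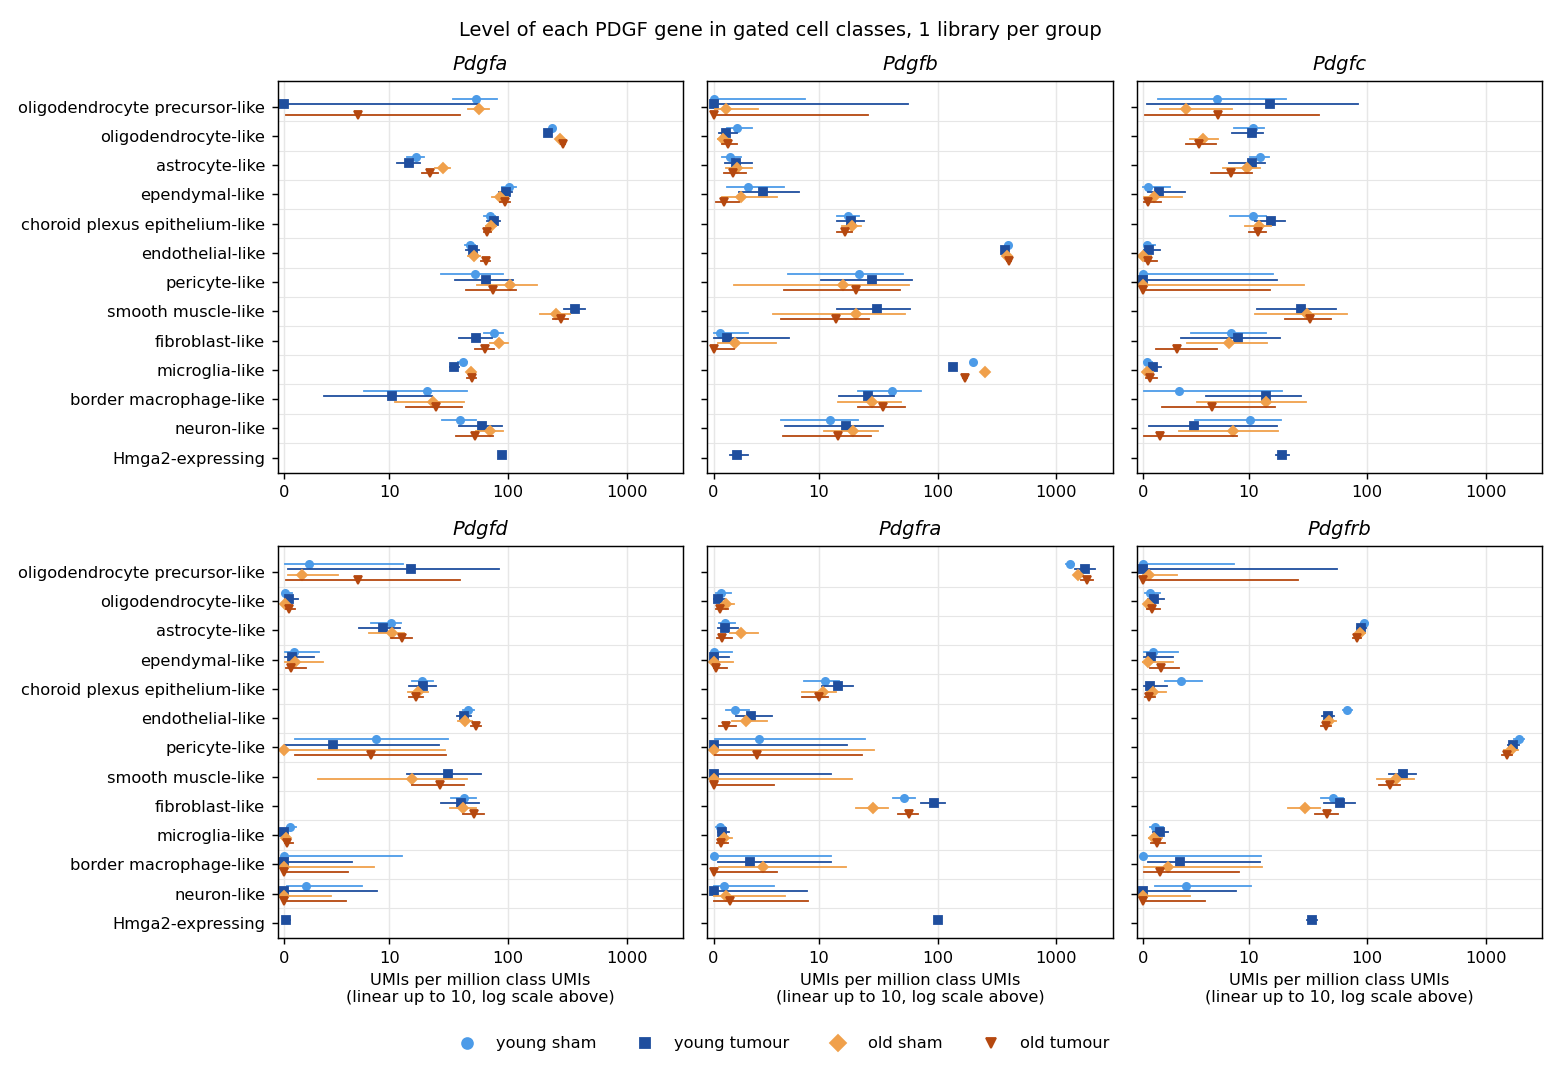
Level of each PDGF gene (horizontal axis, UMIs per 1000000 class UMIs, linear up to 10 and logarithmic above) in 13 cell classes (rows) of the 4 libraries (points), with 95% counting intervals (lines); classes under 20 cells in a library are left out. Pdgfra is highest in oligodendrocyte precursor-like cells and Pdgfrb in pericyte-like cells, while the level of Pdgfb in microglia-like cells spreads from 136 to 250 between libraries.

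Pdgfb (ENSMUSG00000000489), the B chain gene, lies on chromosome 15 (79995874 to 80014977, minus strand). Endothelial- and microglia-like cells together held most of its UMIs in every library. Endothelial-like cells, the lining of the vessels, held 47.8%, 45.1%, 33.9% and 54.2%. Their level was 394 CPM (380 to 408), 369 (353 to 386), 385 (368 to 402) and 400 (387 to 415). These levels lay close together, with ratios of 0.937 for young tumour against young sham (0.886 to 0.992), 1.04 for old tumour against old sham (0.983 to 1.10), 0.976 for old sham against young sham (0.922 to 1.03) and 1.08 for old tumour against young tumour (1.02 to 1.15).

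A UMI of Pdgfb was found in 74.1%, 67.1%, 72.6% and 78.4% of endothelial-like cells, at median depths of 3399 to 4956 UMIs, against 0.455 to 1.45% of oligodendrocyte-like cells at 5089 to 6458 UMIs. Thinned to 1000 UMIs, the endothelial shares were 31.7%, 32.5%, 32.3% and 32.6%. They differed by less than their own counting error. By position in the vessel tree, cells with arterial markers had 406, 328, 388 and 379 CPM and those with capillary markers 401, 375, 388 and 411. Cells with venous markers, 9 to 18 per library, were too few for a level.

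Of the 4 PDGF genes measured in endothelial-like cells (Pdgfa, Pdgfb, Pdgfd and Pdgfrb), none was past 1.5-fold in any comparison. Of all genes, 3.17% were for young tumour against young sham, 2.91% for old tumour against old sham, 7.81% for old sham against young sham and 5.04% for old tumour against young tumour. Pdgfa in this class stood at 1.29 for old tumour against young tumour (1.11 to 1.51). That value was 1.52 with clusters in place of the marker gate and 1.73 after thinning.

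Microglia-like cells held 42.9%, 41.3%, 56.1% and 36.1% of Pdgfb UMIs. Their level was 198 CPM (191 to 206), 136 (130 to 142), 250 (242 to 259) and 171 (163 to 178). Each tumour library lay below the sham library of its age, and each old library above the young one. Tumour against sham gave 0.685 (0.645 to 0.727) at the young age and 0.682 at the old (0.645 to 0.720). Old against young gave 1.26 in sham (1.20 to 1.33) and 1.26 with tumour (1.18 to 1.34). None reached the bound, and neither did Pdgfa, the other PDGF gene measured in this class. After thinning, Pdgfb stood at 0.653 for old tumour against old sham and Pdgfa at 1.55 for old tumour against young tumour (1.40 before), both past it. Of all genes, 7.78% were past 1.5-fold for young tumour against young sham, 5.39% for old tumour against old sham, 9.3% for old sham against young sham and 6.27% for old tumour against young tumour. A UMI of Pdgfb was found in 44.7%, 38.4%, 55.0% and 46.9% of the cells, and in 17.1%, 14.7%, 19.6% and 14.2% after thinning. The 8 endothelial markers stood in microglia-like cells at 0.258 to 0.368% of their own class level, while Pdgfb stood at 36.8 to 65.0%.

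Immediate early genes, which tissue handling can induce, had the same order of libraries as Pdgfb in this class. Fos, a transcription factor gene of the immediate early response, stood at 2575, 1058, 3673 and 1460 CPM, Egr1, another such factor, at 1018, 329, 2319 and 702, and Jun, the partner of Fos, at 4962, 2079, 6491 and 3060. A UMI of the cytokine gene Tnf or of the stress factor gene Atf3 was found in 44.9%, 29.2%, 77.8% and 39.7% of microglia-like cells. Cells without either had 178 CPM of Pdgfb (168 to 188), 136 (129 to 145), 147 (131 to 165) and 145 (136 to 154). In those cells the ratio of tumour to sham was 0.767 in young and 0.985 in old mice, and that of old to young was 0.827 in sham and 1.06 with tumour. The age ratio in sham thus lay on the other side of 1 when these cells were left out, and the old tumour ratio was near 1. This split was chosen after the values were seen. With 1 library per group, handling and group cannot be told apart.

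**Figure D3:**
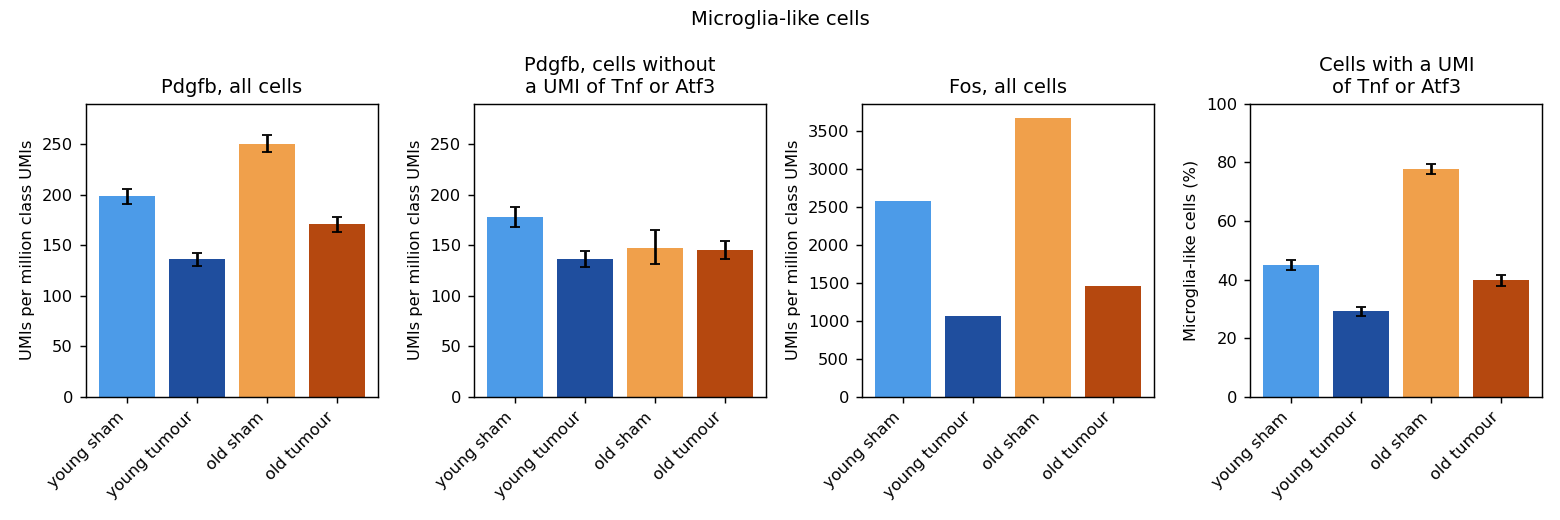
Pdgfb in all microglia-like cells and in those without a UMI of Tnf or Atf3, Fos in all of them (vertical axes, UMIs per 1000000 class UMIs) and the share of them with a UMI of Tnf or Atf3 (%), by library, with 95% counting intervals where drawn. Old sham is the highest bar for Pdgfb over all cells (250), for Fos (3673) and for the share (77.8%), while without those cells Pdgfb lies between 136 and 178 in all 4 libraries.

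Low Pdgfb was counted in other classes. Border macrophage-like cells had 26.1 to 41.2 CPM and choroid plexus epithelium-like cells 16.4 to 18.9. Pericyte-like cells had 15.8 to 28.1 CPM on 2 to 6 UMIs, which is 4.11 to 7.61% of the endothelial-like level, where the endothelial markers stood at 3.86 to 5.88%. Hmga2-expressing cells had 2.26 CPM on 29 UMIs, 0.657% of the young tumour UMIs of the gene.

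Pdgfc (ENSMUSG00000028019), on chromosome 3 (81036416 to 81214040, plus strand), encodes the C chain. It was sparse, with 367, 619, 311 and 425 UMIs over all barcodes of the libraries, and no class dominated. Astrocyte-like cells held 37.9%, 12.2%, 23.7% and 18.3% of its UMIs, oligodendrocyte-like cells 26.2%, 16.6%, 28.6% and 16.9%, and choroid plexus epithelium-like cells 18.5%, 9.78%, 28.2% and 45.1%. In young tumour, 49.3% lay in Hmga2-expressing cells, at 19.3 CPM. By level, smooth muscle-like cells had the highest values, 27.5 CPM for young tumour, 31.0 for old sham and 32.7 for old tumour, on 6 to 21 UMIs. Their range over libraries lay above that of the next class. Such ranges leave out counting error, which is wide on so few UMIs, so the first place is not set. Choroid plexus epithelium-like cells followed among the larger classes with 10.9, 15.4, 12.3 and 11.97 CPM. Astrocyte-like cells had 12.4, 10.6, 9.81 and 8.34. A UMI was found in 3.01 to 4.25% of astrocyte-like cells (median depths of 3065 to 3744 UMIs), against 0 to 0.369% of endothelial-like cells (3399 to 4956 UMIs). No UMI of Pdgfc was counted in pericyte-like cells of any library, which allows up to 12.3 to 23.7 CPM. Its ratio in astrocyte-like cells was 0.790 for old sham against young sham (0.571 to 1.08), and 0.583 after thinning.

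In oligodendrocyte-like cells Pdgfc was lower in both old libraries: 10.9 CPM (78 UMIs), 10.6 (83), 5.65 (76) and 5.32 (58). The ratio was 0.518 for old sham against young sham (0.373 to 0.720) and 0.502 for old tumour against young tumour (0.353 to 0.711), 1 lower of 2 PDGF genes measured in each. Of all genes in the class, 8.28% and 6.4% were past 1.5-fold in these comparisons. For young tumour against young sham the ratio was 0.971 (0.704 to 1.34), and neither of the 2 genes measured was called (1.57% of all genes). For old tumour against old sham Pdgfa alone had enough counts and was not called (1.53% of all genes). The split by Klk6 ran against that of Pdgfa: Klk6-positive cells had 3.78, 1.73, 1.18 and 1.03 CPM of Pdgfc, on a few UMIs each, and Klk6-negative cells 12.5, 12.1, 7.16 and 6.89. Both old libraries were thus also lower within the Klk6-negative cells.

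Pdgfd (ENSMUSG00000032006), on chromosome 9 (6168584 to 6378850, plus strand), encodes the D chain. Endothelial-like cells held 51.7%, 52.8%, 43.0% and 46.0% of its UMIs, at 46.2, 42.3, 43.7 and 53.6 CPM. Fibroblast-like cells, the connective tissue cells of meninges and large vessels, had 42.2, 39.8, 41.97 and 51.1 CPM, and their range overlapped the endothelial one. Smooth muscle-like cells had 15.5 to 30.9 CPM, choroid plexus epithelium-like cells 16.7 to 19.2 and astrocyte-like cells 9.41 to 12.7. No ratio of Pdgfd between libraries was past 1.5-fold. The largest in the endothelial-like class was 1.27 for old tumour against young tumour (1.07 to 1.49).

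A UMI of Pdgfd was found in 24.3%, 16.4%, 23.4% and 28.3% of endothelial-like cells, and in 4.77%, 4.79%, 4.08% and 5.71% after thinning, against 0 to 0.159% of microglia-like cells (median depths of 3273 to 4932 UMIs). Pdgfb and Pdgfd were found in the same endothelial-like cell in 20.7%, 13.4%, 19.1% and 25.1% of them. An excess of these joint shares over what independent detection gives was not tested. Among astrocyte-like cells, those with a UMI of Agt, the angiotensinogen gene of non-telencephalic astrocytes, had 18.1, 15.1, 15.8 and 16.8 CPM of Pdgfd and those without 3.63, 3.80, 4.80 and 6.82. Agt was chosen for this split after values had been seen. Choroid plexus epithelium-like cells had 31.1 to 45.4% of the endothelial-like level of Pdgfd, with endothelial markers at 0.322 to 0.737% of theirs.

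Pdgfra (ENSMUSG00000029231), the receptor gene on chromosome 5 (75152292 to 75198215, plus strand), was highest in oligodendrocyte precursor-like cells, the dividing progenitors of oligodendrocytes. The level there was 1310 CPM (558 UMIs in 89 cells), 1756 (116 in 25), 1513 (2590 in 328) and 1815 (257 in 31). All 4 lay far above the next class, without overlap. Both tumour libraries held too few of these cells for a ratio, and 5 cells carried 41.4% of the UMIs in young tumour and 32.7% in old tumour. Old sham against young sham gave 1.16 (1.05 to 1.27). Pdgfa and Pdgfra were measured in that comparison and neither was called, beside 26% of all genes. A UMI of Pdgfra was found in 93.3%, 92.0%, 97.0% and 96.8% of the cells (median depths of 1754 to 5498 UMIs), against 0.212 to 0.467% of microglia-like cells (3273 to 4932 UMIs). After thinning these shares were 60.7%, 90.9%, 73.1% and 71.0%. The class held 70.4%, 7.28%, 92.5% and 46.6% of Pdgfra UMIs. These cells also held some Pdgfa in sham (54.0 CPM on 23 UMIs in young and 56.7 on 97 in old), and in young tumour 0 UMIs, which allows up to 45.4 CPM.

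By level of Pdgfra, fibroblast-like cells were the next resident class. Over all libraries they held 308 UMIs of it and choroid plexus epithelium-like cells 299. Fibroblast-like cells had 52.3 CPM (41.9 to 64.4, 88 UMIs), 92.5 (72.3 to 116, 72 UMIs), 28.4 (20.5 to 38.4, 42 UMIs) and 57.0 (46.7 to 69.0, 106 UMIs). Young tumour was highest and old sham lowest. Tumour against sham gave 1.77 (1.28 to 2.44) at the young age and 2.01 at the old (1.39 to 2.94). Old against young gave 0.544 in sham (0.367 to 0.794) and 0.617 with tumour (0.453 to 0.844).

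These ratios rest on few cells. In each library 5 cells held 31.1 to 37.5% of the UMIs, and a UMI was found in 26.8%, 28.8%, 23.3% and 30.6% of 104 to 160 cells, shares whose intervals overlap (median depths of 6995 to 9166 UMIs). After thinning, in a single random draw, the shares were 9.70%, 11.3%, 6.31% and 7.05%, from 13, 11, 7 and 11 cells with a UMI. Microglia-like cells had a UMI in 0.212 to 0.467% of cells. The young tumour ratio was 1.40 without doublet removal, 1.20 as a mean over cells and 1.05 after thinning. The old tumour against old sham ratio was 1.49 with clusters and 1.41 as a mean over cells, and old tumour against young tumour was 0.791 without doublet removal. Old sham against young sham stayed at 0.338 to 0.647 under all settings run. Pdgfrb in the same cells was 51.1, 59.1, 29.8 and 45.7 CPM on 44 to 86 UMIs. Its ratio was 1.54 for old tumour against old sham (1.05 to 2.26), 1.32 with the stricter cell filter and 1.42 with clusters. Old tumour against young tumour gave 0.774 (0.534 to 1.13), and 0.519 with the stricter cell filter. For old sham against young sham it was 0.583 (0.396 to 0.848).

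Of 4 PDGF genes measured in fibroblast-like cells, 1 was higher for young tumour against young sham (21.3% of all genes past 1.5-fold in either direction) and 2 for old tumour against old sham (13.8%). For old sham against young sham, 2 were lower (20.1%), and for old tumour against young tumour 1 was lower (20.6%). Pericyte markers in the class summed to 134, 719, 134 and 130 CPM, with 4 of the 7 at 0 in young tumour and in old sham. Oligodendrocyte precursor markers summed to 12.5, 28.3, 20.3 and 6.99 CPM, 0.0990 to 0.485% of their own class level, where Pdgfra stood at 1.88 to 5.26%. The fibroblast markers themselves summed to 4249, 5137, 3196 and 3377 CPM, also highest in young tumour and lowest in old sham. Their part in the Pdgfra ratios was not tested. All 522 gated cells lay in clusters named fibroblast, which differed in their leading genes. The larger cluster, of 570 cells, had 0 of the fibroblast markers among them, and the smaller, of 101 cells, had 3. The mix of these clusters in each library was not compared.

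Choroid plexus epithelium-like cells had 11.3, 14.5, 10.8 and 10.0 CPM of Pdgfra, 15.7 to 38.1% of the fibroblast-like level, while fibroblast markers stood at 1.82 to 2.97% of theirs. No ratio of Pdgfra was past 1.5-fold in that class. Microglia-, astrocyte-, oligodendrocyte- and endothelial-like cells had at most 3.53 CPM in any library.

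**Figure D4:**
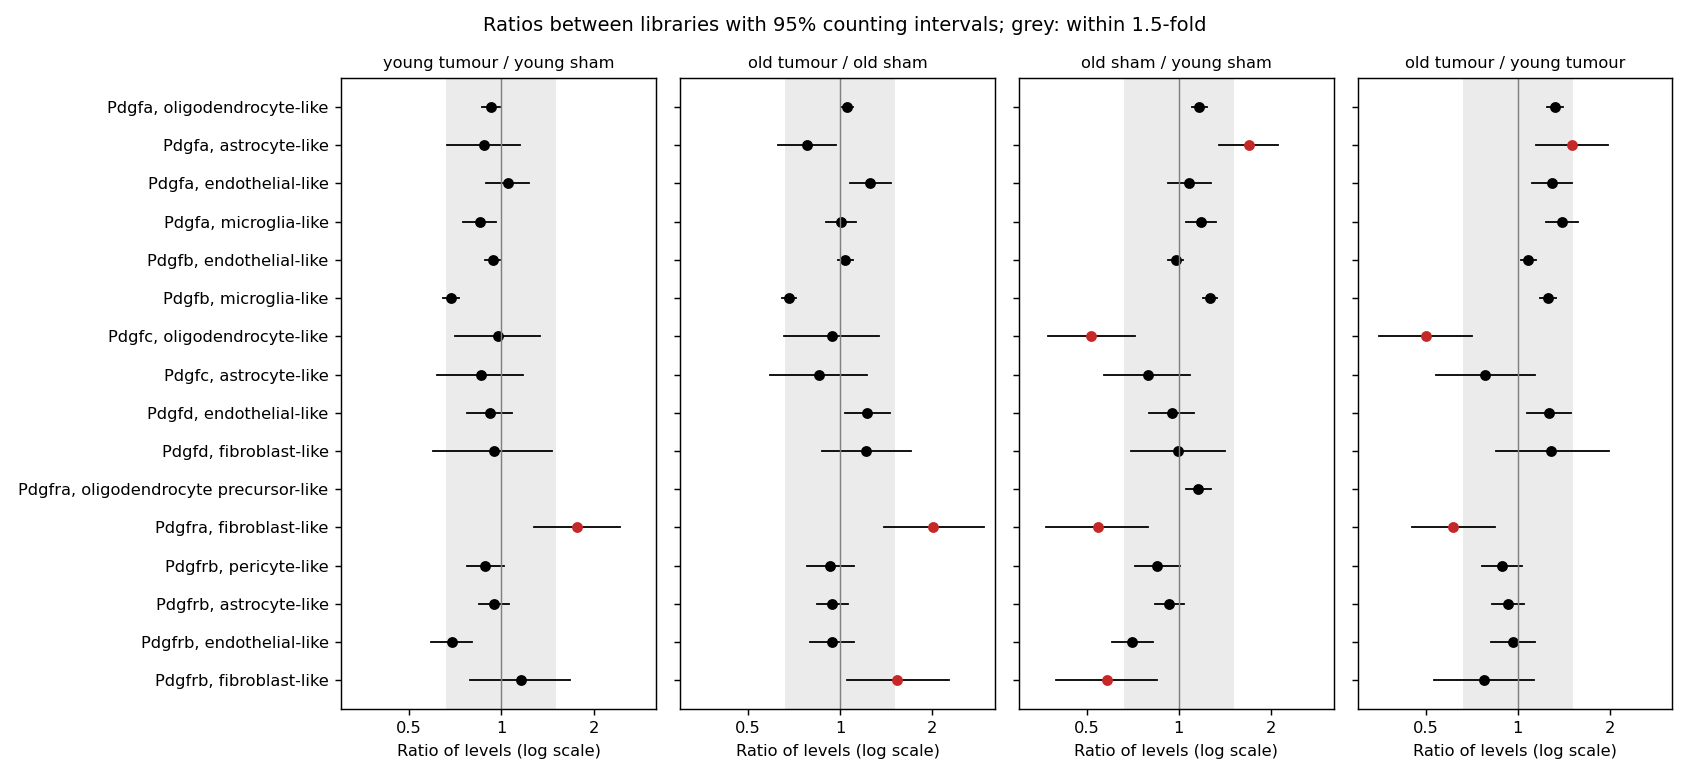
Ratio of the level between 2 libraries (horizontal axis, log scale) for the larger pairs of PDGF gene and cell class (rows) in the 4 comparisons (panels), with 95% counting intervals; red points are past 1.5-fold and the grey band lies within it. Ratios of Pdgfb in endothelial-like cells lie between 0.937 and 1.08, and those of Pdgfra in fibroblast-like cells are past the bound in all 4 comparisons.

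Pdgfrb (ENSMUSG00000024620), the receptor gene on chromosome 18 (61045150 to 61085061, plus strand), was highest in pericyte-like cells, which wrap capillaries. They had 1918 CPM (441 UMIs in 127 cells), 1701 (363 in 122), 1629 (206 in 74) and 1512 (368 in 113). Young sham was highest and old tumour lowest, and the next class lay far below without overlap. Tumour against sham gave 0.887 (0.770 to 1.02) at the young age and 0.928 at the old (0.781 to 1.11). Old against young gave 0.849 in sham (0.716 to 1.00) and 0.889 with tumour (0.767 to 1.03). All 4 ratios were below 1 and within the bound, and all 4 intervals extend past 1. With clusters in place of the marker gate the tumour ratios lay on the other side of 1, at 1.06 in young and 1.11 in old mice. The cluster named pericyte had 578 cells, and 15 of the 436 pericyte-like cells kept that name. Its ratios thus come mostly from other cells and do not check those of the gated class. A UMI was found in 95.3%, 91.0%, 89.2% and 88.5% of the pericyte-like cells (median depths of 1575 to 2049 UMIs), against 0.344 to 0.637% of microglia-like cells (3273 to 4932 UMIs). After thinning they were 88.0%, 77.1%, 78.4% and 73.6%, with 23 to 27 shallower cells of each library left out.

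Of 3 PDGF genes measured in pericyte-like cells, none was called for young tumour against young sham (41.2% of all genes), old tumour against old sham (47.2%) or old tumour against young tumour (41.5%). For old sham against young sham, 1 was, Pdgfa at 1.97 with an interval that holds 1 (0.829 to 4.72), beside 47.3% of all genes. Pericyte- and smooth muscle-like cells merged gave Pdgfrb ratios of 0.605, 0.703, 0.544 and 0.632 for young tumour against young sham, old tumour against old sham, and old against young within sham and within tumour. The 16, 56, 37 and 96 smooth muscle-like cells, with a lower level of Pdgfrb, make up different parts of that sum.

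Smooth muscle-like cells had 199 CPM of Pdgfrb for young tumour, 176 for old sham and 154 for old tumour. Astrocyte-like cells came next and were lower, yet held more UMIs of the gene than any other single class: 32.4%, 23.3%, 36.9% and 32.7% of them. Their level was 94.1 CPM (87.9 to 101), 88.9 (81.3 to 96.9), 87.6 (80.5 to 95.1) and 82.6 (76.3 to 89.4), with ratios of 0.930 to 0.944 in the 4 comparisons. This is 4.91 to 5.46% of the pericyte-like level, where the 7 pericyte markers stood at 0.0934 to 0.134% of theirs, with none at 0. A UMI of Pdgfrb was found in 27.5%, 22.8%, 25.1% and 25.5% of astrocyte-like cells, and in 8.36%, 7.75%, 8.99% and 8.65% after thinning. Astrocyte-like cells without a UMI of Agt had 106, 101, 112 and 102 CPM and those with one 79.4, 76.3, 64.4 and 69.0, the reverse of the order for Pdgfd.

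Endothelial-like cells had 68.0, 46.8, 48.0 and 45.1 CPM of Pdgfrb. That is 2.75 to 3.55% of the pericyte-like level, and pericyte markers stood in these cells at 1.76 to 3.05%. The young sham library was highest in both. The ratio of young tumour to young sham was 0.688 (0.590 to 0.801), within the bound, and passed it with clusters (0.643), as a mean over cells (0.629) and after thinning (0.301). That of old sham to young sham was 0.705 (0.604 to 0.822), and 0.499 and 0.639 with clusters and after thinning. Clusters also lowered the level itself, to 9.46 CPM (old sham), 12.2 (young tumour) and 19.0 (young sham). The gated level of Pdgfrb thus depends on how the cells were named, and the cluster ratios describe a much lower level. The part of the cells that lost the name was not tested. Old tumour against young tumour stood at 0.963 (0.817 to 1.14), and 1.90 after thinning. Thinning was a single random draw and left few counts. A UMI of Pdgfrb was then found in 39, 11, 19 and 21 endothelial-like cells, and no interval was computed for the thinned ratios. Cells with arterial markers had 156, 113, 84.3 and 36.3 CPM on 16 to 54 UMIs. A further 17.0 to 25.3% of Pdgfrb UMIs lay in cells with markers of 2 classes. Most of these came from 102, 85, 74 and 53 cells with both endothelial and pericyte markers, which had 552, 526, 420 and 455 CPM of Pdgfrb and 286, 271, 327 and 328 of Pdgfb. Their median depths were 7407 to 10321 UMIs, against 1575 to 2049 in pericyte-like cells. Whether they are pairs of attached cells was not tested. Oligodendrocyte precursor-like cells held 0, 0, 1 and 0 UMIs of Pdgfrb.

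Hmga2-expressing cells made up 4.12% of young tumour cells (3.75 to 4.52%). At this limit of 2 UMIs, 0 cells were counted in young sham, 1 in old sham and 0 in old tumour. The floors of 0.0284% and 0.0305% for young sham and old tumour limit cells with at least 2 UMIs of Hmga2, not cells that express it. At least 1 UMI of Hmga2 was found in 28, 538, 17 and 15 cells of the libraries, whose median depths were 4218, 21785, 4778 and 8638 UMIs. The cluster that holds them was led by Xist, the RNA that silences an X chromosome, and Hmga2, then Prkg2, a protein kinase gene, Col3a1, a fibrillar collagen gene, and Fosl1, a Fos-family factor gene. No cell class name was given to them. They had 88.4 CPM of Pdgfa (1133 UMIs), 19.3 of Pdgfc (247), 100.4 of Pdgfra (1286) and 34.1 of Pdgfrb (437), but 2.26 of Pdgfb (29) and 0.156 of Pdgfd (2). They thus held transcripts of the A and C chains and of both receptor genes, with those of the B and D chains close to absent.

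Of the young tumour UMIs of each gene in kept cells, these cells held 80.7% for Pdgfra, 49.3% for Pdgfc, 24.6% for Pdgfa, 19.9% for Pdgfrb, 0.657% for Pdgfb and 0.463% for Pdgfd. Their share of all UMIs was 20.4%. Pdgfra and Pdgfc stood far above that share, Pdgfa somewhat above it and Pdgfrb close to it. Next to the other classes of that library, their Pdgfra level lay below the 1756 CPM of oligodendrocyte precursor-like cells and near the 92.5 of fibroblast-like cells. Their Pdgfa level lay below the 218 of oligodendrocyte-like cells and near the 95.9 of ependymal-like cells. Their Pdgfrb level lay below the 88.9 of astrocyte-like cells. The nearness to fibroblast-like cells in Pdgfra holds for summed counts. As a mean over cells, fibroblast-like cells of young tumour had 253 CPM of it, above the mean over Hmga2-expressing cells given below. After thinning, which left few counts, fibroblast-like cells had 196.

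The cells were deep, with a median of 25743 UMIs, and a UMI was found in 78.4% of them for Pdgfa, 38.98% for Pdgfc, 78.7% for Pdgfra and 46.6% for Pdgfrb. After thinning to 1000 UMIs these shares were 5.57%, 1.39%, 10.2% and 3.94%. Pdgfa and Pdgfra were found in the same cell in 64.0% of them (59.3 to 68.6%), Pdgfra and Pdgfrb in 38.5% (33.9 to 43.3%) and Pdgfa and Pdgfc in 32.9% (28.5 to 37.6%). Such joint shares depend on the shares of the single genes, and an excess over what independent detection gives was not tested. The UMIs were spread over many cells, since the 5 highest cells held 7.15% for Pdgfra and 7.59% for Pdgfa. Oligodendrocyte precursor markers summed to 243 CPM in these cells, 4.16% of their own class level and with none at 0, beside 5.72% for Pdgfra. The part of these markers in the Pdgfra level was not tested.

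**Figure D5:**
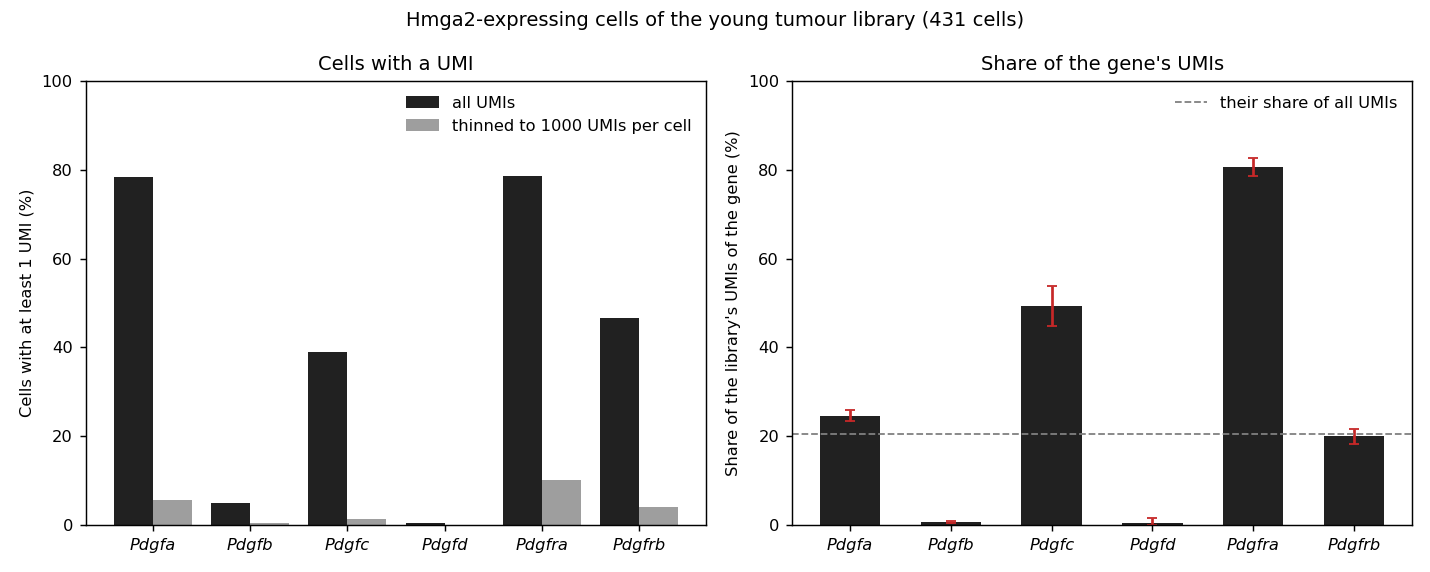
Left, share of the 431 Hmga2-expressing cells of young tumour with at least 1 UMI of each PDGF gene (vertical axis, %), from all UMIs and after thinning each cell to 1000; right, share of the library's UMIs of each gene that lies in these cells (%), with 95% counting intervals (red) and their 20.4% share of all UMIs (dashed line). Pdgfra at 80.7% and Pdgfc at 49.3% stand above the line, and Pdgfb and Pdgfd near 0.

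The wider pathway was followed in a list of 59 genes: co-receptors and binding partners, proteases that process the ligands, matrix carriers, receptor-proximal signalling, attenuators and response genes. In endothelial-like cells, 1 of 47 measured was higher and 4 lower for young tumour against young sham, 0 and 7 of 47 for old tumour against old sham, 6 and 3 of 47 for old sham against young sham, and 3 and 1 of 46 for old tumour against young tumour. The share called was 10.6%, 14.9%, 19.1% and 8.70%, where all genes of the class had 3.17%, 2.91%, 7.81% and 5.04%. The median log2 ratio of the list was 0.03, -0.10, 0.01 and -0.11, against -0.02, -0.06, 0.02 and -0.02 over all genes. Response genes made the extremes. Fos stood at 156, 53.1, 1652 and 131 CPM, and Egr1 at 30.8, 19.9, 263 and 53.7. Old sham was by far the highest, by 10.6-fold over young sham for Fos (9.97 to 11.3) and 8.54-fold for Egr1 (7.44 to 9.83). Socs3, an inhibitor of cytokine signalling, was 3.08-fold higher (2.51 to 3.80). Fos was also highest in old sham in some classes with little of either receptor gene. It stood at 142, 44.4, 835 and 207 CPM in oligodendrocyte-like cells, and at 850 in ependymal-like cells of old sham. This did not hold in every class: neuron-like cells had 102 CPM in old sham and 123 in old tumour. Handling and group cannot be told apart here either, and the part of PDGF signalling in these values was not tested. Sparc, a matrix protein that binds PDGF-B, was lower in old mice with and without tumour, at 0.616 in sham (0.597 to 0.636) and 0.611 with tumour (0.593 to 0.629). For young tumour against young sham, Dusp6, a phosphatase gene induced by ERK signalling, was higher, at 1.54 (1.34 to 1.76). Fyn, a Src family kinase gene, stood at 0.622 for old sham against young sham (0.533 to 0.724).

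In oligodendrocyte precursor-like cells, compared for old sham against young sham alone, 9 of 49 list genes were higher and 6 lower, 30.6% against 26% of all genes. The list's median log2 ratio was 0.12 and that of all genes 0.05. Socs3 was highest at 21.0 (5.73 to 175, from 2 UMIs in young sham), then Fos at 13.6 (10.5 to 17.9) and Egr1 at 7.78 (4.401 to 15.2). Map2k1, the kinase gene upstream of ERK, was lowest at 0.479 (0.292 to 0.801), then Hras at 0.562 (0.418 to 0.763) and Id3 at 0.581 (0.374 to 0.923). Fos and Egr1 were thus higher in old sham here too, and the same limit on handling holds.

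In pericyte-like cells, 7 of 51 list genes were higher and 10 lower for young tumour against young sham, 6 and 11 of 52 for old tumour against old sham, 9 and 9 of 52 for old sham against young sham, and 9 and 6 of 52 for old tumour against young tumour. The shares called, 33.3%, 32.7%, 34.6% and 28.8%, were below those of all genes. The list's median log2 ratios were -0.03, -0.08, -0.05 and -0.19, against 0.03, -0.10, 0.13 and 0.00 over all genes. Fos stood at 1985 CPM in old sham, against 91.3 in young sham, 9.37 in young tumour and 28.8 in old tumour. The limit on handling holds for these values as well. Plat, the tissue plasminogen activator gene that opens the C chain, stood at 0.754 for young tumour against young sham (0.582 to 0.974). Cspg4, the NG2 co-receptor gene of pericytes, stood at 0.703 for old tumour against old sham (0.551 to 0.899), both within the bound.

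In fibroblast-like cells, 7 of 51 were higher and 3 lower for young tumour against young sham, 4 and 5 of 49 for old tumour against old sham, 6 and 2 of 48 for old sham against young sham, and 4 and 8 of 52 for old tumour against young tumour. The shares called were 19.6%, 18.4%, 16.7% and 23.1%, beside 21.3%, 13.8%, 20.1% and 20.6% of all genes. The list's median log2 ratios were 0.13, -0.03, 0.03 and 0.02, beside 0.02, 0.00, -0.01 and -0.03. The matrix gene Sparcl1, like Pdgfra in these cells, was highest in young tumour and lowest in old sham, at 55.9, 167, 21.0 and 49.5 CPM. Its ratio of tumour to sham was 2.99 (2.27 to 3.94) at the young age and 2.36 at the old (1.55 to 3.67). Ccnd1, a cell cycle cyclin gene, was higher in old mice, at 4.56 in sham (2.83 to 7.64) and 2.93 with tumour (1.45 to 6.71). Nrp1, a co-receptor gene, was lower for young tumour against young sham, at 0.650 (0.546 to 0.770).

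In astrocyte-like cells the list gave 0 of 47 higher and 2 lower for young tumour against young sham, 2 and 2 of 48 for old tumour against old sham, 1 and 0 of 48 for old sham against young sham, and 1 and 0 of 45 for old tumour against young tumour. The shares called were 4.26%, 8.33%, 2.08% and 2.22%, beside 1.38%, 2.4%, 4.52% and 2.93% of all genes. The median log2 ratios were 0.02, -0.12, 0.08 and -0.05, beside -0.02, -0.06, 0.03 and -0.01 over all genes. Dusp6 was higher in old sham than in young sham, at 1.57 (1.34 to 1.85). For old tumour against old sham, A2m, a plasma protein that carries PDGF-B, was higher at 1.55 (1.25 to 1.93), and Spry4, a feedback inhibitor of receptor tyrosine kinases, was lower at 0.645 (0.505 to 0.824).

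For each PDGF gene, the 3 genes with the most alike profile over 22 classes were sought, by Pearson's r of the log2 level averaged over libraries. The classes share libraries and differ in depth, so r is a description. Pdgfa was most like Dst (0.873), a cytoskeletal linker gene, Lzts2 (0.873) and Rassf8 (0.868). Pdgfb was most like St8sia6 (0.779), a sialyltransferase gene, Ehd4 (0.743), an endocytic ATPase gene, and Ecscr (0.743), an endothelial surface protein gene. Pdgfc was most like Slc5a3 (0.786), an inositol transporter gene, Trnp1 (0.757) and Abca5 (0.748). Pdgfd was most like Fzd4 (0.941), a Wnt and norrin receptor gene of the vessels, Wfdc1 (0.884) and Bcam (0.849), a laminin receptor gene. Pdgfra was most like Adam12 (0.858), a metalloprotease gene, Prkg2 (0.839) and Mmp2 (0.829), a gelatinase gene. Pdgfrb was most like Aspn (0.860), a matrix proteoglycan gene, Cped1 (0.848) and Ano1 (0.848), a chloride channel gene of mural cells.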

How the data were processed

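Counts per gene and barcode were deposited as filtered 10x matrices, whole numbers of UMIs with no normalization by the authors. Cell Ranger 6.1.0 is named in the deposited file headers, whereas the submitters' processing notes name Cell Ranger 3.0.2, Seurat 2.3.4 and mm10; the difference was not resolved. Groups followed the labels. The 6 PDGF genes, the gene lists and the markers were chosen with earlier results of these data known.

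Cells under 500 UMIs or 200 genes, or above 20% mitochondrial UMIs, were dropped, leaving 44503 of 46097 barcodes. Scrublet scores (scanpy 1.11.5) were computed per library, and the highest-scoring cells were removed as doublets at 0.8% per 1000 barcodes, 4113 cells. Each cell was scored on 22 marker lists of cell types: each marker's log level at 10000 UMIs per cell, divided by its 90th percentile among positive cells and capped at 1, was averaged over the list. A class needed a score of 0.25 and a lead of 1.5-fold over the next unrelated list. Cells with a score but no lead were kept apart as cells with markers of 2 classes. This named 38136 cells, of which 1090 had a lead under 2. Cells with at least 2 UMIs of Hmga2 were taken out first. Arterial, capillary and venous markers were scored within endothelial-like cells at 0.2. Cell types were rebuilt here, so any departure from the study's own classes can lie in the naming.

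Levels are UMIs summed over a class in a library per 1000000 UMIs of that class (CPM). Ratios have exact conditional Poisson intervals and shares exact Clopper-Pearson intervals, at 95%. A count of 0 allows up to 3 counts, for shares of cells and for levels. UMI intervals cover counting error only. The ratio and interval computation was tested on simulated data. Genes of the pathway list were named by rule: up to 3 with the highest and 3 with the lowest ratio, from those with at least 50 UMIs over both libraries and 20 CPM in 1. Some of these are printed, and Fos and Egr1 levels are given as companions. Genes alike in profile needed 100 UMIs, with Gm and Rik names left out. Positions are those of GENCODE vM21 (GRCm38). Clusters for comparison were made with the Leiden method (igraph 0.11.9) without the PDGF genes, 33 in all. Python 3.11.15, numpy 2.4.6, pandas 2.3.3 and scipy 1.17.1 were used. Alternatives tried were: doublets left in, a stricter filter (1000 UMIs, 10% mitochondrial), clusters, a stricter gate (score 0.3, lead 2), totals without mitochondrial and ribosomal protein genes, median-centred ratios, means over cells, thinning to 1000 UMIs, other Hmga2 limits (1 or 5 UMIs) and a limit of 50 CPM for the list. Merged mural classes and microglia-like cells without Tnf or Atf3 were added after the data had been seen.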

Additional observations from a re-analysis of the deposited data

Results flagged for a closer look

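Pdgfa in oligodendrocyte-like cells moved in opposite directions with the tumour at the 2 ages: tumour over sham gave 0.928 (0.867 to 0.993) at the young age and 1.05 (1.00 to 1.10) at the old. Both are within 1.5-fold, and the difference between the ages was not tested, since each group is 1 library. The young ratio was 1.05 after thinning each cell to 1000 UMIs, on the other side of 1.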

How the results depend on the processing

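No paired analysis was possible because each group is 1 library and replicate numbers pair nothing. Leaving out a replicate was not possible for the same reason. Of 468 alternative values of 57 ratios, 25 crossed the 1.5-fold bound. Not run under any alternative were the ratios of Pdgfa in neuron-, monocyte- and pericyte-like cells and of Pdgfb and Pdgfc in neuron-like cells. Among the 57 ratios that were run, those reported as past the bound had 0 alternatives on the other side of 1. Ratios reported as within it were not part of that count. Among those, Pdgfrb in endothelial-like cells for old against young tumour went from 0.963 to 1.90 after thinning. Of the 274 alternative values of the leading results, 196 stayed within counting error (or within 1.5 times, for counts of genes) and 78 moved; these are given below with the reported value in the report, and the cause was not tested.

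With clusters in place of the gate, Pdgfrb in the pericyte cluster was 1.06 for young tumour against young sham and 1.11 for old tumour against old sham. Of the 436 gated pericyte-like cells 15 kept that name, so these values come mostly from other cells and do not check the gated ratios. Also with clusters, Pdgfb in microglia-like cells was 0.867 for young tumour against young sham and 1.03 for old against young tumour. Pdgfa in oligodendrocyte-like cells was 1.24 for old against young sham. Endothelial-like cells then held 39.5, 40.3, 29.4 and 49.2% of Pdgfb UMIs (in the order of the libraries used above) and oligodendrocyte-like cells 27.5, 25.0, 33.8 and 27.8% of Pdgfa. The oligodendrocyte values leave out clusters that scored highest as oligodendrocyte but were left without a name, the largest of them led by Klk6. Calls of list genes summed over the comparisons were 31 in the pericyte cluster, again mostly other cells, and 67 in the gated pericyte-like cells.

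At a minimum of 50 CPM those calls were 38 in pericyte-like, 15 in place of 25 in endothelial-like, 15 in place of 39 in fibroblast-like and 1 in place of 8 in astrocyte-like cells. As means over cells, Pdgfb in microglia-like cells was 0.793 (young tumour against young sham) and 1.12 (old against young tumour), Pdgfa in oligodendrocyte-like cells 1.21 (old against young tumour) and Pdgfra in fibroblast-like cells 1.20 (young tumour against young sham). Shares were then 34.03, 90.04 and 60.5% for Pdgfra in oligodendrocyte precursor-like cells of young tumour, old sham and old tumour, 36.1, 38.7, 28.8 and 45.4% for Pdgfb in endothelial-like and 38.7, 45.01, 65.1 and 55.3% for Pdgfa in oligodendrocyte-like cells. Hmga2-expressing cells had 82.1 CPM of Pdgfa and 116 of Pdgfra.

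Without doublet removal, Pdgfrb in pericyte-like cells was 0.734 (young tumour against young sham) and 1.06 (old against young tumour). Pdgfra shares were 59.0% in young sham and 81.5% in old sham, Pdgfb shares 42.6, 40.2, 31.4 and 49.8%, Pdgfa shares 40.0, 32.6, 57.2 and 45.55%, and Pdgfra in Hmga2-expressing cells 90.8 CPM. The stricter cell filter gave Pdgfra shares of 74.1, 5.75 and 52.2% (young sham, young tumour, old tumour) and Pdgfa shares of 47.1, 38.6 and 54.05% in the same libraries. The stricter gate gave Pdgfb shares of 41.3, 42.1, 29.5 and 51.2%.

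After thinning, Pdgfb was 1.01 in endothelial-like cells (young tumour against young sham), and 0.778 and, for old against young tumour, 1.06 in microglia-like cells. Pdgfa in oligodendrocyte-like cells was 1.05 and 1.17 in the same comparisons. Pdgfra in fibroblast-like cells was 1.05 for young tumour against young sham and 0.338 for old against young sham. Those fibroblast ratios rest on 7 to 13 cells with a UMI per library, in a single random draw. Pdgfa in Hmga2-expressing cells was 58.0 CPM. Without mitochondrial and ribosomal protein genes in the total, those cells had 120 CPM of Pdgfa and 136 of Pdgfra. Taken at 1 UMI of Hmga2, they had 94.6 CPM of Pdgfra. Median-centring gave 0.731 for Pdgfb in microglia-like cells (young tumour against young sham). The alternatives chosen after seeing the data gave 0.605, 0.703, 0.544 and 0.632 for Pdgfrb in merged mural cells. For Pdgfb in microglia-like cells without Tnf or Atf3 they gave 0.767, 0.985, 0.827 and 1.06.

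Small numbers limit several classes: 16 to 96 smooth muscle-like and 74 to 127 pericyte-like cells per library, and 25 and 31 oligodendrocyte precursor-like cells in the tumour libraries. No interval covers the spread between mice, and no result has a replicate check.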
